A study of Mus musculus with 16 samples.

Results

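The genes described here are 10 structural components of basement membranes that were measured in mouse hearts. They are the laminin chain genes Lama2, Lama4, Lama5, Lamb1, Lamb2 and Lamc1, the nidogen genes Nid1 and Nid2, and the proteoglycan genes Hspg2 (perlecan) and Agrn (agrin). They were picked by symbol and are 10 of the 18346 genes in the deposited table. RNA-seq had been run on whole heart tissue of 16 mice in 4 groups of 4: KO hearts at 25 months (aged KO), WT hearts at 25 months (aged WT), KO hearts at 8 weeks (young KO) and WT hearts at 8 weeks (young WT). The KO mice lacked Armh4 systemically, that is in all tissues and not only in the heart, and the WT mice were healthy C57BL/6J animals. The sources used here do not give the sex of the animals or whether KO and WT mice were littermates. The design asks how loss of Armh4, which encodes a membrane protein, bears on the ageing of the heart.

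A basement membrane is the thin sheet of matrix on which endothelial cells rest and which wraps every cardiomyocyte, smooth muscle cell and pericyte. Laminins are trimers of an alpha, a beta and a gamma chain that polymerise on the cell surface, where integrins and dystroglycan hold them. Nidogens link the laminin network to the type IV collagen network, and perlecan and agrin, which carry heparan sulfate chains, bind laminin or nidogen and tether growth factors. In striated muscle the laminin with the alpha 2 chain surrounds the fibres, and loss of that chain causes a congenital muscular dystrophy. The alpha 4 and alpha 5 chains belong mainly to vessel walls.

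Total counts ranged from 11456503 to 13298660 per library. All 10 genes passed the filter on low counts, and 13373 genes were tested. Armh4 averaged 1.14 CPM (counts scaled to library size) in aged KO hearts, against 18.5 CPM in aged WT hearts, and 0.374 CPM in young KO hearts, against 15.5 CPM in young WT hearts, with no overlap between genotypes at either age. Markers of cardiomyocytes summed to 87170 to 115300 CPM over the 16 hearts, and none of the 10 markers was at 0 in any group. Nid2 had fractional counts in 16 of 16 libraries, which happens where a counting method divides reads between genes or transcripts, so its values are less certain than those of the other 9 genes, whose counts were whole. It also had the fewest counts of the set, 221 to 386 per heart, against 1025 to 8165 for the others.

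Per length, the laminin beta 2 chain was the most abundant of these transcripts. In FPKM, a length-corrected level, Lamb2 averaged 82.4 over the 16 hearts and Hspg2 39.1. Lamc1 and Nid1 followed at 31.7 and 31.5 FPKM, and each was above the other in 8 of 16 hearts, so their order is not settled. Lamb1 stood at 23.0 FPKM, above Lama4 at 20.6 FPKM in 15 of 16 hearts. Lama4 exceeded Lama5, at 18.0 FPKM, in 12 of 16 hearts. Lama5, Agrn and Lama2 lay close together at 18.0, 16.7 and 15.999 FPKM, and neighbours in that order exchanged places from heart to heart. Nid2 was the least abundant at 5.48 FPKM and lay below Lama2 in 16 of 16 hearts. The gamma 1 chain, the only gamma chain among the 10, is shared by the laminins that the other chains can form.

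Promoter sequence is shown for 4 of the genes, namely the 3 with the largest falls in ageing WT hearts (Nid1, Hspg2 and Lamb2) and Agrn, the gene that did not share their direction. Each is the 250 bases before the annotated transcription start, taken from RefSeq on build GRCm38.p6 and read 5′ to 3′ on the gene's strand, with the GC box core GGGCGG in capitals on either strand. The intervals are chr13:13437352-13437601 on the plus strand for Nid1, chr4:137468553-137468802 on the plus strand for Hspg2, chr9:108479612-108479861 on the plus strand for Lamb2 and chr4:156197489-156197738 on the minus strand for Agrn.
Nid1: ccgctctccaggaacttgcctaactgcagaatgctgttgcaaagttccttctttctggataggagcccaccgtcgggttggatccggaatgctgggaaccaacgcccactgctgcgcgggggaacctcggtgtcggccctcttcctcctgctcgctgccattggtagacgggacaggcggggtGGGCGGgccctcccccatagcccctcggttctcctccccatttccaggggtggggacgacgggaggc
Hspg2: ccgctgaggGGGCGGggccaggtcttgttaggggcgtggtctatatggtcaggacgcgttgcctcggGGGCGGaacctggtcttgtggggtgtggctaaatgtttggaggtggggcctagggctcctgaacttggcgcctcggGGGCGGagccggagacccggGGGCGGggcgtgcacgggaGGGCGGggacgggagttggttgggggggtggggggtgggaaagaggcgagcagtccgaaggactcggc
Lamb2: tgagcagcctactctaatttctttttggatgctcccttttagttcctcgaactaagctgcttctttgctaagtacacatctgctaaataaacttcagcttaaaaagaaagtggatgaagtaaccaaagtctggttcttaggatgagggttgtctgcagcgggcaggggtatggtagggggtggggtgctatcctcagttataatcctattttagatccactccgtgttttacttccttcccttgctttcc
Agrn: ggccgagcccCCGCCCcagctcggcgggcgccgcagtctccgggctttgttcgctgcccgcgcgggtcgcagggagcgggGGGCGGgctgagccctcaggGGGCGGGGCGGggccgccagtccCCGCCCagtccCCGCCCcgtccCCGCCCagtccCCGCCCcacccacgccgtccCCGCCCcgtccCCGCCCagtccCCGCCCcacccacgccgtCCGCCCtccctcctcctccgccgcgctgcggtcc

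The 4 sequences are unlike each other in composition. The Agrn sequence shown has 83.6% G and C and holds the GC box core 12 times, counting overlaps, and the Hspg2 promoter has 70% and holds it 5 times. Nid1 has 64.4% and 1 core, together with 1 CCAAT box in the form ATTGG, and Lamb2 has 43.6% and no core. Of 32851 mouse promoters of the same length, 32.74% hold GGGCGG and 33.85% hold CCAAT on either strand, and the median G and C content is 52.4%. A second annotated Agrn start, not printed, has 60.8% G and C and 2 cores in the 250 bases before it. These matches describe letters only. The table matched 7 of the 10 genes, and Lama4, Lamc1 and Nid2 are not shown.

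Between 8 weeks and 25 months, none of the 10 genes passed the test in KO hearts, whereas 8 of the 10 fell in WT hearts: Lama2, Lama4, Lamb1, Lamb2, Lamc1, Nid1, Nid2 and Hspg2. The rule was an adjusted p under 0.05 in edgeR's quasi-likelihood F test. In KO hearts 2.6% of all tested genes fell by that rule. Of the 10 genes, 4 had an unadjusted p under 0.05 there, against 2914 of all 13373 tested genes, and DESeq2 and limma called none. The KO result for some genes depended on single hearts. With 1 heart left out in edgeR, the KO difference of Lama4 ran from -0.27 to -0.17 (smallest adjusted p = 0.0597). That of Nid1 ran from -0.27 to -0.16 (smallest adjusted p = 0.0763), and none of the 10 passed. In 2 of the 10, Lamb2 and Hspg2, every aged KO heart lay below every young KO heart, against 6.97% of all tested genes. The median log2 difference in KO hearts was -0.19 over the 10 genes and -0.01 over all tested genes. In WT hearts the log2 differences of the 8 genes ran from -0.64 to -0.40, and Lama5 and Agrn did not pass. Across all tested genes 9.93% fell in WT hearts. That share covers genes of all levels, whereas each of the 10 except Nid2 had a mean log2 CPM above at least 88.1% of tested genes. The part of expression level in the calls was not tested. In 7 of the 10 genes every aged WT heart lay below every young WT heart, a pattern held by 9.68% of all tested genes. The median difference in WT hearts was -0.43 over the 10 genes and -0.01 over all tested genes.

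**Figure D1:**
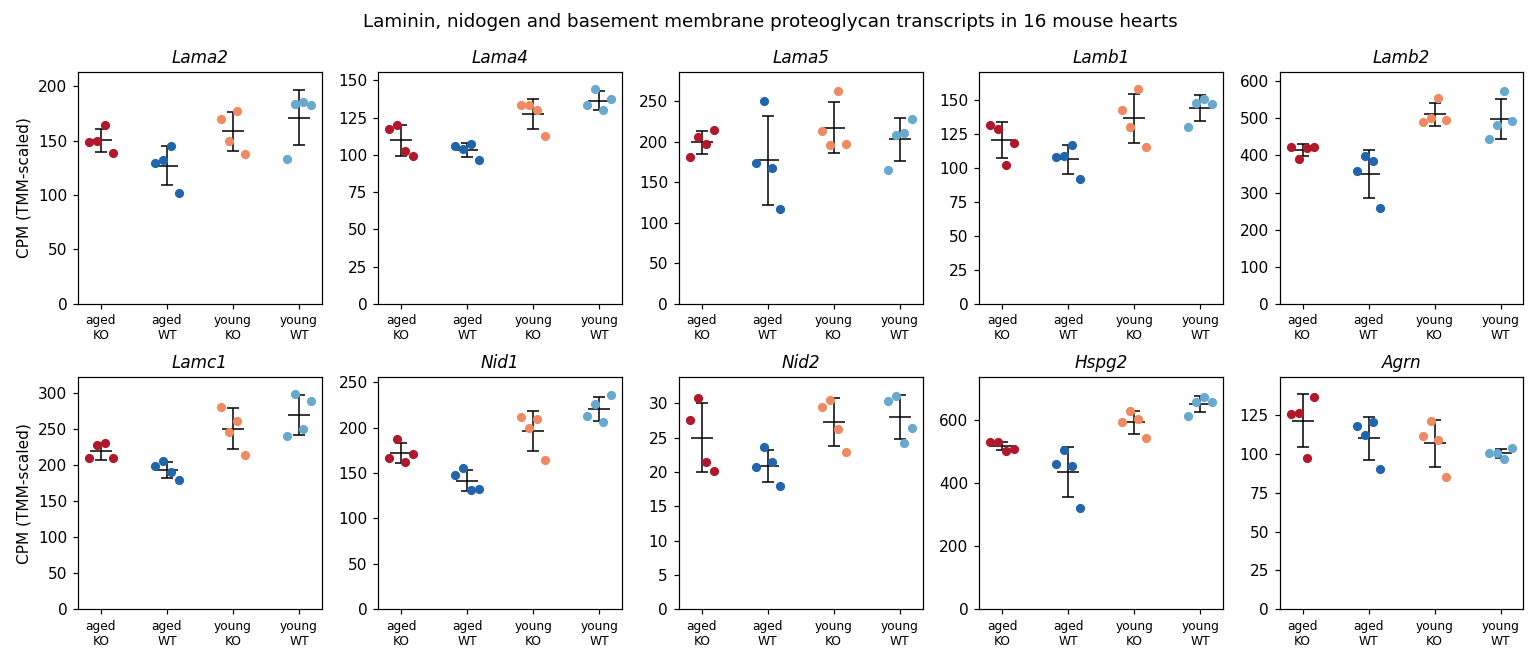
Each panel shows 1 gene in TMM-scaled CPM (axis from 0), with 1 point per heart, a bar at the group mean and whiskers of 1 SD (n = 4). Aged WT hearts lie below young WT hearts without overlap for Nid1, Hspg2, Lamb2, Lamc1, Lamb1, Lama4 and Nid2, while Agrn is not lower in either aged group.

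Levels of single hearts are given next in CPM, in order of animal number within a group, and the means are with their SD (n = 4). Differences are edgeR log2 values with their standard error, and each adjusted p comes from edgeR's quasi-likelihood F test, adjusted by the Benjamini-Hochberg method over all 13373 genes.

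Among the alpha chains, Lama2 (gene ID 16773), the muscle chain, had 148.5, 149.3, 164.3 and 138.3 CPM in aged KO hearts and 101.8, 131.8, 145.1 and 129.0 CPM in aged WT hearts. Young KO hearts had 169.9, 149.4, 176.8 and 137.9 CPM and young WT hearts 132.8, 183.2, 185.1 and 182.3 CPM. The lowest aged WT heart and the lowest young WT heart each stood apart from the other 3 of their group, and aged and young WT hearts overlapped. The ageing difference was -0.08 ± 0.12 in KO hearts (adjusted p = 0.755) and -0.43 ± 0.12 in WT hearts (adjusted p = 0.0122). This call was lost without young WT heart 34 (adjusted p = 0.051) and in a fit of the WT hearts alone (0.0551).

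Lama4 (gene ID 16775), the alpha chain of endothelial basement membranes, had 117.2, 119.9, 103.0 and 99.1 CPM in aged KO hearts and 96.9, 103.8, 107.3 and 106.0 CPM in aged WT hearts. It had 133.5, 133.7, 130.5 and 112.7 CPM in young KO hearts and 133.3, 144.6, 130.1 and 137.4 CPM in young WT hearts. All 4 aged WT hearts lay below all 4 young WT hearts, while aged and young KO hearts overlapped. The ageing difference of Lama4 was -0.22 ± 0.08 in KO hearts (adjusted p = 0.113), and it fell in WT hearts, with a difference of -0.40 ± 0.08 (adjusted p = 0.00137).

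Lama5 (gene ID 16776), the chain of mature endothelium and epithelium, had 180.7, 205.2, 196.6 and 214.6 CPM in aged KO hearts and 117.1, 250.3, 167.8 and 173.6 CPM in aged WT hearts. Young KO hearts had 212.5, 195.7, 262.5 and 197.3 CPM and young WT hearts 165.5, 207.6, 210.3 and 227.9 CPM. It was the most variable of the set in aged WT hearts, which held both the lowest and the second highest value of all 16 hearts. Its ageing difference was -0.12 ± 0.17 in KO hearts and -0.19 ± 0.17 in WT hearts (adjusted p = 0.728 and 0.438), with a 95% interval of -0.54 to 0.16 in WT hearts.

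The beta chains differed in level but not in the direction of their difference with age. Lamb1 (gene ID 16777), the beta chain of embryonic and many adult basement membranes, had 131.5, 128.6, 102.3 and 118.1 CPM in aged KO hearts and 91.6, 108.4, 117.1 and 107.7 CPM in aged WT hearts, with 142.7, 130.3, 157.6 and 115.2 CPM in young KO hearts and 129.9, 147.5, 150.9 and 147.2 CPM in young WT hearts. The KO age groups overlapped and the WT age groups did not. The ageing difference was -0.18 ± 0.10 in KO hearts (adjusted p = 0.316), and Lamb1 fell in WT hearts, with a difference of -0.44 ± 0.10 (adjusted p = 0.00434).

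Lamb2 (gene ID 16779), the beta chain of the adult muscle fibre surface and of vessels, had 423.1, 389.5, 419.7 and 424.1 CPM in aged KO hearts and 258.2, 399.3, 384.2 and 358.9 CPM in aged WT hearts. It had 490.4, 500.2, 556.0 and 495.7 CPM in young KO hearts and 444.4, 482.2, 574.3 and 492.0 CPM in young WT hearts. In both genotypes every aged heart lay below every young heart. The difference was -0.30 ± 0.11 in KO hearts (adjusted p = 0.103) and -0.51 ± 0.11 in WT hearts (adjusted p = 0.00226). When only the 8 KO hearts entered the fit, Lamb2 passed with -0.29 (adjusted p = 0.0153).

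Lamc1 (gene ID 226519), the gamma 1 chain, had 209.6, 227.9, 231.2 and 209.6 CPM in aged KO hearts and 180.0, 206.1, 191.1 and 198.5 CPM in aged WT hearts. Young KO hearts had 280.8, 246.4, 261.9 and 214.4 CPM and young WT hearts 240.7, 298.4, 251.0 and 289.2 CPM. Every aged WT heart was lower than every young WT heart and also lower than every aged KO heart. With age, Lamc1 differed by -0.19 ± 0.09 in KO hearts (adjusted p = 0.224) and by -0.48 ± 0.09 in WT hearts (adjusted p = 0.000826).

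Nid1 (gene ID 18073), which encodes nidogen 1, a link between the laminin gamma 1 chain and type IV collagen, showed the largest fall of the set in ageing WT hearts. It had 166.1, 187.6, 162.2 and 170.9 CPM in aged KO hearts, with a mean of 172 ± 11.2 CPM, and 132.5, 155.1, 131.2 and 147.4 CPM in aged WT hearts, with a mean of 142 ± 11.6 CPM. Young KO hearts had 211.6, 199.5, 209.2 and 164.4 CPM, with a mean of 196 ± 21.8 CPM, and young WT hearts 212.6, 226.3, 206.1 and 235.9 CPM, with a mean of 220.2 ± 13.4 CPM. Aged WT hearts were the lowest group, with no overlap with any other group, and the aged and young KO hearts overlapped. With age, Nid1 differed by -0.19 ± 0.09 in KO hearts (adjusted p = 0.212) and by -0.64 ± 0.09 in WT hearts (adjusted p = 3.74e-05), where it ranked 230 among all tested genes by p-value.

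Nid2 (gene ID 18074), the second nidogen, had 27.5, 30.8, 21.5 and 20.1 CPM in aged KO hearts and 17.9, 23.6, 21.4 and 20.7 CPM in aged WT hearts, with 29.4, 30.5, 26.2 and 22.8 CPM in young KO hearts and 30.3, 31.1, 24.2 and 26.4 CPM in young WT hearts. Its aged WT hearts lay just below its young WT hearts. The difference was -0.13 ± 0.13 in KO hearts (adjusted p = 0.63) and -0.42 ± 0.13 in WT hearts (adjusted p = 0.0268). Nid2 was the least stable call of the set: it was lost on either FPKM scale (adjusted p = 0.131 and 0.126) and without aged WT heart 1 (0.085), aged WT heart 12 (0.0602), young WT heart 29 (0.0786) or young WT heart 34 (0.101).

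Hspg2 (gene ID 15530), the perlecan gene, had 527.8, 528.9, 501.5 and 508.5 CPM in aged KO hearts, with a mean of 517 ± 13.8 CPM, and 320.7, 503.5, 454.7 and 458.1 CPM in aged WT hearts, with a mean of 434 ± 78.9 CPM. It had 592.6, 628.8, 602.6 and 541.9 CPM in young KO hearts, with a mean of 591 ± 36.4 CPM, and 612.6, 656.9, 673.0 and 655.8 CPM in young WT hearts, with a mean of 649.6 ± 25.9 CPM. The 4 aged KO hearts were within a narrow band, whereas 1 aged WT heart was far below the other 3. With age, Hspg2 differed by -0.20 ± 0.10 in KO hearts (adjusted p = 0.278) and by -0.58 ± 0.10 in WT hearts (adjusted p = 0.000383). Without aged WT heart 1 the difference in WT hearts was -0.44, with an adjusted p of 0.000202.

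Agrn (gene ID 11603), which encodes agrin, a ligand of dystroglycan also known from the neuromuscular junction, did not follow perlecan. It had 125.5, 126.5, 97.5 and 136.9 CPM in aged KO hearts and 90.0, 112.3, 120.5 and 117.9 CPM in aged WT hearts, with 111.3, 121.4, 109.0 and 85.5 CPM in young KO hearts and 100.8, 100.5, 96.6 and 103.6 CPM in young WT hearts. The young WT hearts lay within a narrow range, and the other groups spread more widely and overlapped it. The differences with age were 0.19 ± 0.11 in KO hearts (adjusted p = 0.361) and 0.13 ± 0.11 in WT hearts (adjusted p = 0.428), and the 95% interval in WT hearts was -0.10 to 0.37.

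Between genotypes at 25 months, none of the 10 genes passed the test, although all 10 were higher in aged KO hearts on average. Across all tested genes 0.875% passed in either direction. The median difference, aged KO minus aged WT, was 0.21 over the 10 genes and 0.00 over all tested genes. Nid1 had the smallest p-value, with a difference of 0.28 ± 0.09 (95% interval 0.09 to 0.46, unadjusted p = 0.00537, adjusted p = 0.174). All 4 aged KO hearts were above all 4 aged WT hearts for Nid1 and Lamc1, which is 2 of the 10 genes, and 2.1% of all tested genes had that pattern. Hspg2 differed by 0.25 ± 0.10 (adjusted p = 0.342), Lamb2 by 0.24 ± 0.11 (adjusted p = 0.415), Nid2 by 0.26 ± 0.13 (adjusted p = 0.512) and Lama2 by 0.24 ± 0.12 (adjusted p = 0.468). Lamc1, Lamb1, Lama5, Agrn and Lama4 differed by 0.08 to 0.18, with adjusted p-values of 0.5 to 0.787. With edgeR, 3 of the 10 genes had an unadjusted p under 0.05, against 1454 of all 13373 tested genes, and DESeq2 and limma called none. These differences shrank without aged WT heart 1, where Hspg2 differed by 0.12 (adjusted p = 0.713), Lamb2 by 0.11 (0.788) and Lama5 by 0.01 (0.997), while Nid1 differed by 0.24 (0.373).

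At 8 weeks the genotypes overlapped in all 10 genes, none passed in either direction, and none had an unadjusted p under 0.05, against 1467 of all 13373 tested genes. DESeq2 and limma also called none. Among all tested genes, 0.269% passed and 8.49% had no overlap between the young groups. Differences, young KO minus young WT, ran from -0.17 for Nid1 to 0.10 for Lama5, with a median of -0.09, and 7 of the 10 were below 0. The 95% interval for Nid1 was -0.35 to 0.02 and that for Hspg2 was -0.35 to 0.08.

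Whether the ageing change differed between genotypes was tested as an interaction, the KO ageing difference minus the WT ageing difference, and none of the 10 genes passed. Among all tested genes 0.464% passed. All 10 values were above 0, with a median of 0.27, and 4 had an unadjusted p under 0.05, against 1637 of all 13373 tested genes. Nid1 had 0.45 ± 0.13 (95% interval 0.18 to 0.71, adjusted p = 0.126), Hspg2 0.39 ± 0.14 (adjusted p = 0.272), Lama2 0.35 ± 0.17 (adjusted p = 0.402) and Lamc1 0.28 ± 0.13 (adjusted p = 0.374). DESeq2 called 1 of the 10, Nid1, with 0.44 (adjusted p = 0.0285), and limma called none. The absence of calls in KO hearts and the falls in WT hearts are therefore not shown by edgeR to differ. The aged WT hearts enter the WT ageing comparison, the aged genotype comparison and the interaction, so these 3 sets of values share libraries and are not independent.

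**Figure D2:**
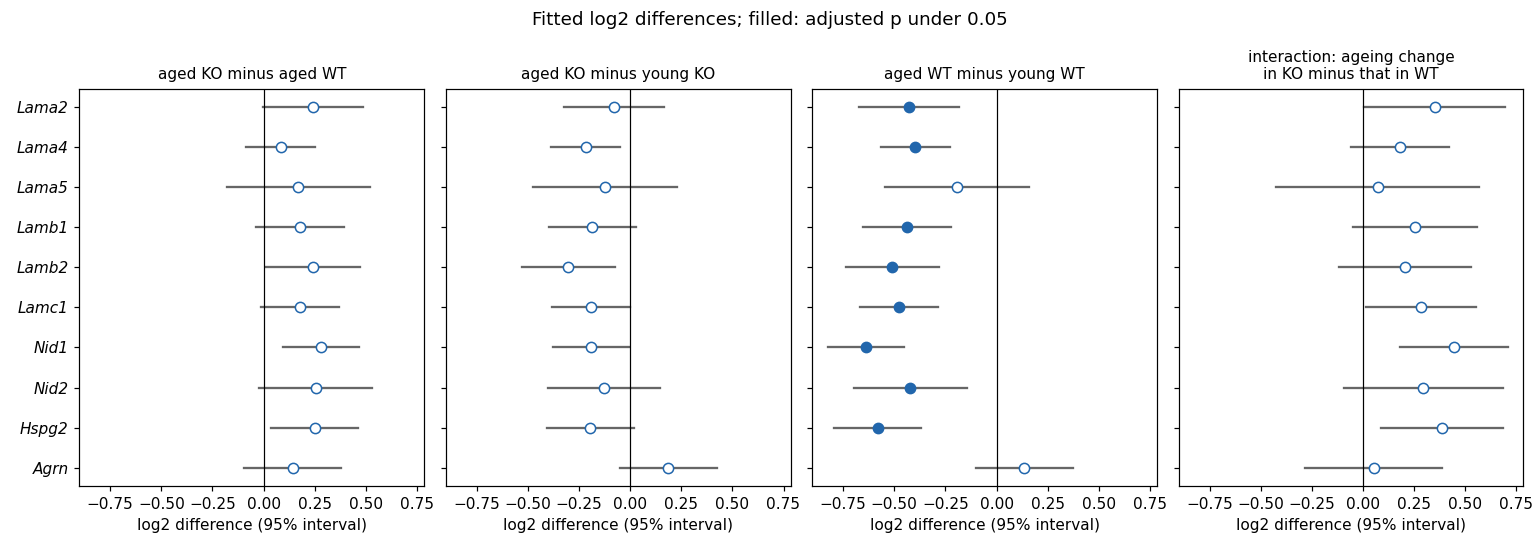
Points are fitted log2 differences of the 10 genes (horizontal axis) and lines are 95% intervals, for aged KO minus aged WT, aged KO minus young KO, aged WT minus young WT and the interaction; filled points passed at an adjusted p under 0.05. Filled points appear only for aged WT minus young WT, where 8 genes lie between -0.64 and -0.40.

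The mean of the centred log2 CPM of the 10 genes lay between -0.10 and 0.05 in the aged KO hearts, against -0.51 in aged WT heart 1, the lowest, and -0.19 to -0.09 in the other 3 aged WT hearts. It was -0.08 in young KO heart 53 and 0.13 to 0.21 in the other 3 young KO hearts, and 0.05 to 0.22 in young WT hearts. Over the 16 hearts, Lamc1 and Nid1 had a Pearson r of 0.946 and Lamb2 and Hspg2 one of 0.929. Agrn had an r of -0.137 to 0.238 with the other 9 genes, and of 0.278 to 0.703 after group means were removed. Among the other 9 genes r ran from 0.385 to 0.946 before and from 0.05 to 0.88 after that step. These correlations are descriptions over hearts that share group differences and library composition.

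**Figure D3:**
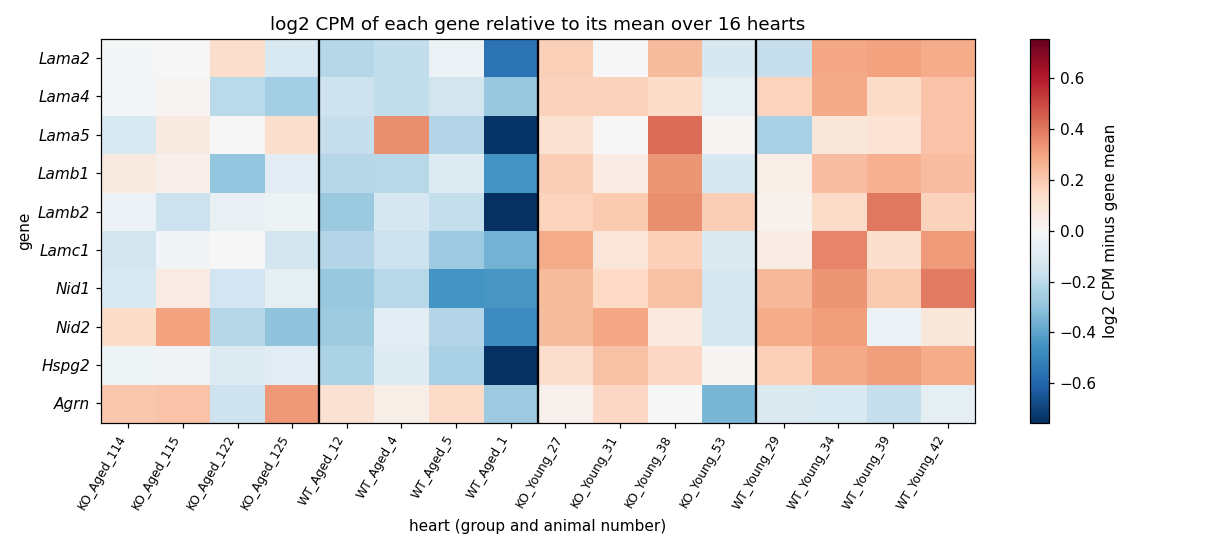
Rows are the 10 genes and columns the 16 hearts by group and animal number; colour is log2 CPM minus the gene's mean over all hearts, red above and blue below. Aged WT heart 1 is blue in all 10 rows, and Agrn is the row whose young WT hearts are all below its mean.

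Outside the set, the 5 genes whose log2 CPM over the 16 hearts was most like the mean of the 10, among 13363 genes compared, were Zmiz1 (Pearson r 0.963), Tanc1 (0.955), Ttc28 (0.940), 2900026A02Rik (0.937) and Zcchc14 (0.933). Their r stayed at 0.843 to 0.928 after group means were removed.

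The balance between related genes was described as a share of summed FPKM. Agrn made up 33.1 ± 3.10% of Agrn and Hspg2 together in aged KO hearts, 35.2 ± 2.37% in aged WT hearts, 27.7 ± 1.68% in young KO hearts and 24.7 ± 1.16% in young WT hearts (SD, n = 4). Aged WT hearts, at 32.4 to 38.2%, were all above young WT hearts, at 23.3 to 26.0%, and aged KO hearts, at 29.1 to 36.7%, overlapped young KO hearts, at 25.4 to 29.3%. The share of Lamb1 in Lamb1 and Lamb2 averaged 22.0% in aged KO, 23.0% in aged WT, 20.6% in young KO and 22.0% in young WT hearts. Nid2 made up 15.3% of both nidogens in aged KO, 15.6% in aged WT, 14.8% in young KO and 13.7% in young WT hearts. Of the 3 alpha chains, Lama4 held 35.8% in aged KO, 38.3% in aged WT, 37.8% in young KO and 39.5% in young WT hearts. Lama5 held 34.2% in aged KO, 33.4% in aged WT, 33.6% in young KO and 30.6% in young WT hearts, with single aged WT hearts between 27.8 and 41.6%. No test was made of these shares.

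**Figure D4:**
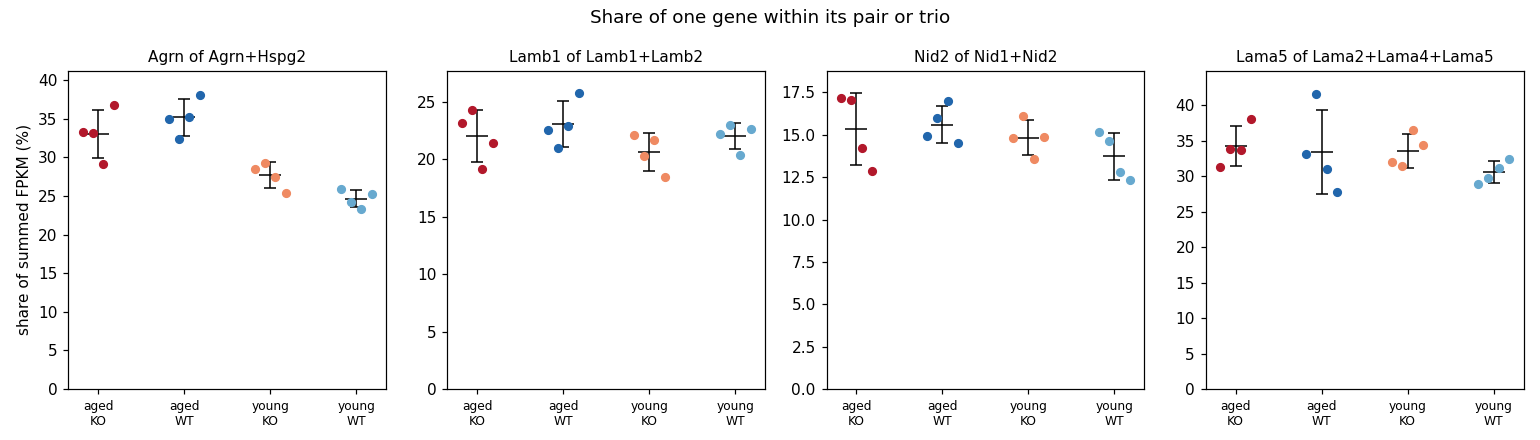
Panels show the share of summed FPKM in percent (axis from 0) held by Agrn, Lamb1, Nid2 and Lama5 within the pair or trio named above each panel, with 1 point per heart, the group mean and 1 SD (n = 4). The Agrn share averages 33.1% in aged KO and 35.2% in aged WT hearts, against 27.7% in young KO and 24.7% in young WT hearts.

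Other basement membrane components were examined as a list of 30 genes, of which 27 were tested. In ageing KO hearts 4 of the 27 fell, against 2.6% of all tested genes, and none rose, with a median of -0.07. They were Col4a1 at -0.70 ± 0.12 (adjusted p = 0.00155), Col4a2 at -0.64 ± 0.12 (adjusted p = 0.00257), Col15a1 at -0.78 ± 0.17 (adjusted p = 0.00778) and Pxdn at -0.42 ± 0.12 (adjusted p = 0.0424). Col4a1 and Col4a2 encode the type IV collagen chains of nearly all basement membranes, Col15a1 a collagen found close to muscle and capillary basement membranes, and Pxdn the peroxidase that crosslinks type IV collagen. In ageing WT hearts 11 of the 27 fell, against 9.93% of all tested genes, and none rose, with a median of -0.46. There Col4a1 and Col4a2 changed by -1.20 ± 0.13 and -1.09 ± 0.12 (adjusted p = 2.19e-06 and 3.85e-06), Col15a1 by -1.52 ± 0.17 (adjusted p = 8.63e-06) and Papln, the papilin gene, by -0.88 ± 0.11 (adjusted p = 1.54e-05). Col4a1 averaged 331 ± 58.5 CPM in aged KO hearts, 269 ± 35.7 CPM in aged WT hearts, 536 ± 60.4 CPM in young KO hearts and 617 ± 63.2 CPM in young WT hearts.

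Between aged genotypes 1 of the 27 passed, against 0.875% of all tested genes. Papln averaged 28.5 ± 2.04 CPM in aged KO hearts and 18.7 ± 2.53 CPM in aged WT hearts, a difference of 0.61 ± 0.11 (adjusted p = 0.0113). At 8 weeks 1 of the 27 passed, against 0.269% of all tested genes. Fbln2, which encodes the matrix glycoprotein fibulin 2, averaged 109.7 ± 9.67 CPM in young KO hearts and 145 ± 10.5 CPM in young WT hearts, a difference of -0.40 ± 0.08 (adjusted p = 0.0486). The interaction passed for 2 of the 27, against 0.464% of all tested genes. These were Fbln2 at 0.61 ± 0.12 (adjusted p = 0.0256) and Papln at 0.80 ± 0.16 (adjusted p = 0.0281).

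The list also holds other laminin chain genes. Lama1 did not pass the filter on low counts, and Lama3, Lamb3 and Lamc3 were tested and passed in no comparison. In ageing WT hearts Lamc3 had an adjusted p of 0.0503, at -1.15 ± 0.41.

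Receptors of laminin and agrin, with the complex attached to dystroglycan, formed a list of 25 genes, of which 24 were tested. In ageing KO hearts 2 of 24 fell, against 2.6% of all tested genes, and none rose, with a median of 0.00. These were Itga6, an integrin subunit gene, at -0.55 ± 0.12 (adjusted p = 0.00601) and Sdc4, a syndecan gene, at -0.42 ± 0.12 (adjusted p = 0.033). In ageing WT hearts 9 of 24 fell, against 9.93% of all tested genes, and none rose, with a median of -0.23. The integrin subunit genes Itga3 and Itga6 changed by -0.82 ± 0.14 and -0.50 ± 0.12 (adjusted p = 0.000286 and 0.00488). Sspn, which encodes sarcospan of the dystrophin complex, changed by -0.47 ± 0.10 (adjusted p = 0.00186). Chosen after their values were seen, Itga7, the integrin subunit of striated muscle, changed by -0.37 ± 0.10 (adjusted p = 0.0147) and Dag1, the dystroglycan gene, by -0.44 ± 0.15 (adjusted p = 0.0453). None of the 24 passed between genotypes at either age or in the interaction.

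The sugars of this system were covered by a list each for matriglycan and heparan sulfate. Enzymes that build matriglycan, the dystroglycan glycan that laminin, agrin and perlecan bind, had 16 of 17 genes tested. Of these, 2 fell in ageing WT hearts, against 9.93% of all tested genes, and none passed elsewhere. Among the 2 was Pomt2 at -0.34 ± 0.09 (adjusted p = 0.00803). Genes that make or edit heparan sulfate had 22 of 25 tested. In ageing KO hearts 3 of 22 rose, against 5.03% of all tested genes, and none fell: Hpse, the heparanase gene, by 2.02 ± 0.33 (adjusted p = 0.000691), and the extracellular sulfatase genes Sulf1 and Sulf2 by 0.68 ± 0.15 and 0.57 ± 0.09 (adjusted p = 0.00871 and 0.000336). In ageing WT hearts 1 of 22 rose and 2 fell, against 11.8% and 9.93% of all tested genes. Hpse rose there by 2.49 ± 0.30 (adjusted p = 7.85e-06), and the chain-extending enzyme genes Extl1 and Ext1 changed by -0.59 ± 0.11 and -0.41 ± 0.10 (adjusted p = 0.000655 and 0.00614). Hpse was a weakly expressed gene: aged KO hearts averaged 2.90 ± 0.384 CPM, aged WT hearts 5.16 ± 1.83 CPM, young KO hearts 0.707 ± 0.374 CPM and young WT hearts 0.908 ± 0.233 CPM.

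These are bulk libraries, so fewer cells of a type and less RNA per cell cannot be told apart. Marker genes of the cells that make basement membrane moved in part with the 10 genes. Over all tested genes, 2.6% fell and 5.03% rose in ageing KO hearts. The shares in ageing WT hearts were 9.93% and 11.8%. In ageing KO hearts 2 of 10 endothelial markers fell, with a median of -0.30 and all 10 below 0, and 1 of 10 cardiomyocyte markers, with a median of -0.18. None of 10 smooth muscle and pericyte markers passed there, with a median of -0.18, and none of 10 fibroblast markers, with a median of 0.25. In those hearts 7 of 10 macrophage markers rose, with a median of 0.76, and none of 6 tested erythroid markers passed, with a median of 0.51. There 1 of 6 tested atrial markers rose, with a median of -0.01. In ageing WT hearts 3 of 10 smooth muscle and pericyte markers fell, with a median of -0.54, as did 4 of 10 endothelial markers, with a median of -0.21 and 6 of 10 below 0, and 4 of 10 cardiomyocyte markers, with a median of -0.19. None of 10 fibroblast markers passed in WT hearts, with a median of 0.08. There 8 of 10 macrophage markers rose, with a median of 1.34, and so did all 6 tested erythroid markers, with a median of 1.54. Atrial markers had a median of -1.10 in ageing WT hearts, with 4 of 6 tested below 0, and none passed. Schwann cell markers were mixed. In ageing WT hearts 2 of 7 tested rose, although 4 were below 0, with a median of -0.51. In ageing KO hearts 1 of 7 fell, with a median of -0.33, and none passed between genotypes at either age. Summed smooth muscle and pericyte markers were 1532 to 1658 CPM in aged KO, 1383 to 1683 CPM in aged WT, 1496 to 1743 CPM in young KO and 1676 to 2126 CPM in young WT hearts. Summed endothelial markers were 1107 to 1345 CPM in aged KO, 1223 to 1412 CPM in aged WT, 1246 to 1668 CPM in young KO and 1220 to 1614 CPM in young WT hearts. Summed fibroblast markers were 2664 to 3439 CPM in aged KO, 2226 to 3010 CPM in aged WT, 2262 to 2976 CPM in young KO and 2138 to 2736 CPM in young WT hearts. None of these markers was at 0 in any group. Summed macrophage markers were 355.3 to 373.6 CPM in aged KO, 457.3 to 654.6 CPM in aged WT, 209.3 to 240.6 CPM in young KO and 171.8 to 249.7 CPM in young WT hearts. Aged WT heart 1, the lowest heart for the 10 genes, had the highest summed macrophage markers of all hearts, at 654.6 CPM. It also had the highest summed erythroid markers, at 2294 CPM, and the lowest summed cardiomyocyte markers, at 87170 CPM. Marker sums are CPM without TMM scaling, unlike the levels of single genes. Between the aged genotypes no endothelial, smooth muscle and pericyte or fibroblast marker passed. The macrophage marker Mrc1, the mannose receptor gene, passed there, at -0.52 ± 0.11 (adjusted p = 0.0324), against 0.875% of all tested genes. All 10 macrophage markers were below 0, with a median of -0.54. All 6 tested erythroid markers were also below 0 in that comparison, with a median of -0.61, and none passed. All 6 tested atrial markers were above 0 both for aged KO minus aged WT, with a median of 2.46, and for young KO minus young WT, with a median of 1.48, and none passed. Summed atrial markers were 115.3 to 618 CPM in aged KO, 103.2 to 463.9 CPM in aged WT, 200.1 to 619.9 CPM in young KO and 168.6 to 398.4 CPM in young WT hearts, and 1 of 7 was at 0 in aged KO and in young WT hearts. The part of cell composition in the differences of the 10 genes was not tested.

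The 10 genes also have long transcripts. In GENCODE M21 on build GRCm38, their longest coding transcripts run from 4876 bases for Nid2 to 14187 bases for Hspg2, with 47.7 to 60.9% G and C. Among 2882 other tested genes with at least 5000 bases, 14.5% fell in ageing WT hearts and the median difference was -0.08, against -0.43 for the 10 genes. The median of those long genes was 0.00 in ageing KO hearts, 0.03 between the aged genotypes and 0.09 for the interaction. By heart, the long genes were lowest in aged WT heart 1, at -0.11 relative to their mean over all hearts, which was also the lowest heart for the 10 genes. The part of transcript length in the differences was not tested.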

How the data were processed

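Heart RNA from 16 mice was sequenced by the submitters, with library preparation by BGI per the labels' protocols. Per the submitters' processing notes, HISAT and Bowtie2 were used with build GRCm39; the program that counted reads is not given in the sources used. The authors deposited a table of estimated counts per gene and a table of FPKM values, both per library. Of the deposited counts, 9.57 to 10.5% per library were not whole, so counts were rounded before testing. Columns were matched to animals by name, because the tables order them differently. The young WT columns carry titles that begin with WO, and the genotype label, WT, was used.

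Counts were tested with edgeR 4.0.16 (R 4.3.3) by the quasi-likelihood F test with robust estimation, after filterByExpr by group (13373 genes kept) and TMM scaling. All 16 libraries entered 1 fit of 4 group means with 12 residual degrees of freedom. P-values were adjusted over all tested genes by the Benjamini-Hochberg method, and genes passed at an adjusted p under 0.05. The code was tested on simulated data. Levels of single genes are TMM-scaled CPM computed from the deposited counts, and comparisons of level between genes use the authors' FPKM. Summed marker levels are CPM over the total count of the library, without TMM scaling. The TMM factors ran from 0.934 in young WT heart 39 to 1.05 in KO_Aged-115. Centred log2 CPM used a prior count of 2. Each p-value sets a difference against the spread between hearts within groups. That spread was estimated over all 4 groups together and moderated by edgeR towards the trend over all genes. Standard errors were computed as the size of the log2 difference divided by the square root of the F value.

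The 10 genes and all lists were chosen with earlier results of these data known. The text names all 10 genes, up to 4 genes per list and comparison by adjusted p, and the 5 genes most correlated with the set; some list genes are not reported here. Alternatives were RLE scaling, no filter, DESeq2 1.42.0, limma 3.58.1 on log2(FPKM + 1) and log2(FPKM + 0.1), fits of 2 groups, each heart left out and, chosen after seeing the data, edgeR without robust estimation. Promoters are from RefSeq and transcript lengths from GENCODE, which is not the authors' build.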

Additional observations from a re-analysis of the deposited data

Results flagged for a closer look

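In 40 sets of 4 hearts (10 genes in 4 groups), the gap between the highest or lowest heart and its nearest neighbour was divided by the range of the group. In 5 sets this ratio was above Dixon's 95% critical value for 4 samples. Chance alone flags about 1 in 20 groups. Young KO heart 53 was far below the others for Lama4 (0.858), and young WT heart 29 was far below the other 3 young WT hearts for Lama2 (0.954) and for Lamb1 (0.838). For Lamb2, the heart labelled KO_Aged-115 was far below the other aged KO hearts (0.878), although the 4 aged KO values spanned 389.5 to 424.1 CPM, and young KO heart 38 was far above the other young KO hearts (0.843).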

How the results depend on the processing

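No paired analysis was possible because the groups share no animal numbers. Of the 10 genes, the count that fell in ageing WT hearts was 8 and stayed at 6 to 8 in all alternatives: 7 with either FPKM scale and with the WT hearts alone, and 6 to 8 with 1 heart left out. Lama4, Lamb1, Lamb2, Lamc1, Nid1 and Hspg2 passed in that comparison under all alternatives run. The count that passed in ageing KO hearts was 0, and 1 with only the 2 groups compared (Lamb2). For the interaction it was 0, and 1 with DESeq2 (Nid1). It was 0 between genotypes at either age under all alternatives. Values of 4 uncalled differences changed sign with 1 heart left out: the interaction of Agrn ranged from -0.051 to 0.15 and that of Lama5 from -0.10 to 0.27, and the difference between young genotypes ranged from -0.10 to 0.036 for Nid2 and from -0.010 to 0.11 for Lamb2. The cause was not tested. Over all genes, the count between aged genotypes was 117, and 17 with the 2 groups alone, 263 with DESeq2, 73 with limma on log2(FPKM + 0.1), 31 without KO_Aged-115, 34 without KO_Aged-122 and 251 without aged WT heart 12. In ageing KO hearts it was 1020, and 675 without KO_Aged-115 and 644 without young KO heart 53. The interaction count was 62, and 213 with DESeq2 and 25 to 171 with 1 heart left out. Between young genotypes it was 36, and 149 with DESeq2, 135 with the 2 groups alone, 15 with limma on log2(FPKM + 1) and 4 to 21 with 1 heart left out. Nid2, at 221 to 386 counts per heart, is the gene that depth limits most.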
